A study of Homo sapiens with 18 samples.

Results

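Metallothioneins are small cysteine-rich proteins that bind zinc, copper and cadmium, and SLC30A1 encodes ZnT1, the transporter that carries zinc out of the cell across the plasma membrane. The 8 genes described here are MT1E, MT1F, MT1G, MT1H, MT1M, MT1X, MT2A and SLC30A1, each by every probe set (the group of array probes that gives 1 value) that the platform annotation maps to that gene alone. They are 8 of 19775 genes with such a probe set on the array, and 14 of 54613 probe sets met the rule, 11 for metallothionein genes and 3 for SLC30A1. Every listed gene had at least 1 such probe set. The genes were selected on enzastaurin and DMSO values of these same arrays, seen earlier. Their differences between agents and times are therefore given as a description, with no p value for any of them. Counts of their probe sets that passed a test are printed, and nothing is read from those counts.

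RNA came from U251, an established human glioblastoma cell line kept in RPMI medium with 5% serum. Cells were exposed for 4, 10 or 18 h to DMSO, the solvent, or to enzastaurin, which inhibits protein kinase C beta and related kinases, and the series title frames the study as one of GSK3 inhibition. Each of the 6 groups held 3 Affymetrix HG-U133 Plus 2.0 arrays, 18 in all. The labels give no enzastaurin dose and leave unsaid whether each replicate came from its own culture, so standard errors and p values measure the spread between these arrays, which may be technical.

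Array medians lay between 99.2 and 125.9, and arrays of 1 group correlated at 0.951 to 0.969 over all probe sets on the log2 scale. The number of arrays limits the precision. Of 7 astroglial and glioma markers, 5 lay at or above the level used as a filter (an intensity of 109), namely VIM, NES, SOX9, EGFR and CD44. The astroglial markers GFAP and S100B had medians of 16.95 and 11.05 over the 18 arrays, near the bottom of the scale. The summed level of this list ran from 56993.7 to 72984.9 in DMSO and from 48120.8 to 71041.8 with enzastaurin. Summed markers of neurons, immune, endothelial, epithelial and liver cells reached at most 501.2 on any array. Among them SNAP25 (neuron), PECAM1 (endothelial), CD3E (immune) and APOA1 (liver) had medians above the filter, at 296.65, 305.15, 112.7 and 116.5. In such bulk RNA, fewer cells of a type and less RNA per cell cannot be told apart.

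As background, cells switch on metallothionein genes when free zinc rises. Zinc then binds the transcription factor MTF1, which recognises metal response elements in the promoters of the metallothionein genes and of SLC30A1. The protein products buffer the metal, while ZnT1 exports it. Metallothionein genes are also known to respond to cadmium, glucocorticoids and oxidative stress. In the RefSeq annotation the 7 metallothionein genes lie in 1 cluster on chromosome 16, in the order MT2A, MT1E, MT1M, MT1F, MT1G, MT1H and MT1X, and SLC30A1 lies on chromosome 1.

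Promoter sequences were at hand for only 4 of the 8 genes, and those of MT1E, MT1F, MT1G and MT1M were not searched. The promoters at hand are shown for the metal response element described above as background. They come from RefSeq (GRCh38.p14) and run from 250 bases before to 50 bases after the gene's start, read on the gene's own strand. MT2A is at chr16:56608334-56608633 on the plus strand, MT1H at chr16:56669564-56669863 on the plus strand, MT1X at chr16:56682220-56682519 on the plus strand and SLC30A1 at chr1:211579112-211579411 on the minus strand. Capitals mark matches to the core of the element, TGCACNC or TGCGCNC, on either strand.
MT2A: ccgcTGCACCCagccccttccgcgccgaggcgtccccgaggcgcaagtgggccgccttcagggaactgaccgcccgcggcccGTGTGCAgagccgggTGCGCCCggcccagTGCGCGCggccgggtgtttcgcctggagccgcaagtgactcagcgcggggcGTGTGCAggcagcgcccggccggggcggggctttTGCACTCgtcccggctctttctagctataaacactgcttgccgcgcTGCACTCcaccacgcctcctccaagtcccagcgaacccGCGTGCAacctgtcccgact
MT1H: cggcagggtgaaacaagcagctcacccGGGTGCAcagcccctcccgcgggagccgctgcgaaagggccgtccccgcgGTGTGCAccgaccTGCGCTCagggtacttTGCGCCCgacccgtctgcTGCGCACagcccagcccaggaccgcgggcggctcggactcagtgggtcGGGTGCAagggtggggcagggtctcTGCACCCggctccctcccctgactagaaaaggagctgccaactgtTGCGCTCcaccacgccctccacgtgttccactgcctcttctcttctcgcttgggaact
MT1X: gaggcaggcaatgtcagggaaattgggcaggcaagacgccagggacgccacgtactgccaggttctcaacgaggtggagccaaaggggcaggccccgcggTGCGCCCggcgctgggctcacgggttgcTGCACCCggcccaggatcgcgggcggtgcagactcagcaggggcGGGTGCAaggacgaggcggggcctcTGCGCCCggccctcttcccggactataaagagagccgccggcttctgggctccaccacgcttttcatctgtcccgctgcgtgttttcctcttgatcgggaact
SLC30A1: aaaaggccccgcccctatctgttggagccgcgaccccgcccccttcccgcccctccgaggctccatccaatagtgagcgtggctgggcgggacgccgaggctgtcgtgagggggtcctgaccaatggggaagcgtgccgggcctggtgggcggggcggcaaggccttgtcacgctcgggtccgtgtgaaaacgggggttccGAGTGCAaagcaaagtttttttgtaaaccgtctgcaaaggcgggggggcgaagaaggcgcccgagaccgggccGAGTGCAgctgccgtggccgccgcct

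MT2A held 8 matches, 5 on the gene's strand and 3 on the other, with first bases between -246 and 31 relative to the start. MT1H also held 8, between -223 and -8. MT1X held 4, between -150 and -53, and SLC30A1 held 2, at -49 and 25, both on the opposite strand. Matches in a promoter did not overlap each other. Of 35116 promoters in the table, 29.6% held at least 1 match, 8.60% at least 2, 0.601% at least 4 and 0.0199% at least 8. A match is a run of letters, and binding was not measured here.

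Of the 14 probe sets, 11 passed the level filter, which asks for a mean over the 18 arrays at or above the median of all probe sets. They comprise 9 metallothionein probe sets, for MT2A, MT1E, MT1F, MT1G, MT1H and MT1X, and 2 of SLC30A1. The 9 metallothionein probe sets all carry the suffix x_at, by which the manufacturer marks probes that can also bind similar transcripts. These genes are close copies, so each signal may hold RNA of several of them, and the 9 probe sets are not 9 independent measurements. One of the 2 tested MT1X probe sets, 204326_x_at, was designed on a transcript that RefSeq now assigns to MT1L, a metallothionein pseudogene. Levels are not compared between probe sets.

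In DMSO the metallothionein signals were higher at 10 and 18 h than at 4 h. In enzastaurin they stayed nearer their 4 h level than in DMSO, and the gap between the agents was widest at 18 h for 6 of 9 probe sets. The values by array follow, as scaled intensities. Changes are log2 differences of group means (3 arrays a group) computed after adding 16 to each intensity, each with a standard error (SE). The SE is that of a linear model of all 18 arrays, which pools their spread over the 6 groups and shares it across probe sets. For a given probe set it is therefore the same at each time, and is not the scatter of only the arrays compared.

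MT2A is the most widely expressed of the human metallothionein genes, and its only probe set was 212185_x_at. The DMSO arrays gave 20112.3, 18589.5 and 20679.8 at 4 h, 22708.4, 27759.7 and 25151.7 at 10 h, and 32616.8, 30565.6 and 28651.3 at 18 h. The enzastaurin arrays gave 17575.0, 18577.4 and 18532.9 at 4 h, 15228.8, 16035.9 and 18127.4 at 10 h, and 16017.4, 17734.8 and 18421.4 at 18 h. In DMSO the 3 time points did not overlap and were in ascending order, while the enzastaurin times overlapped one another. Every enzastaurin array lay below every DMSO array of its time, by the smallest margin at 4 h. The log2 change was -0.12 at 4 h, -0.61 at 10 h and -0.82 at 18 h (SE 0.08). The highest MT2A value, 32616.8, lay below the brightest probe set of each array, which ranged from 41040.8 to 63584.9.

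MT1E had 2 probe sets. For 212859_x_at the DMSO arrays gave 15948.9, 13992.1 and 16157.2 at 4 h, 17562.5, 20624.6 and 19210.3 at 10 h, and 24613.7, 21913.4 and 20497.2 at 18 h. With enzastaurin the same probe set gave 11719.5, 14593.2 and 12836.2 at 4 h, 11327.2, 12523.9 and 14183.4 at 10 h, and 12911.8, 12548.8 and 14064.1 at 18 h. The agents overlapped at 4 h, where the highest enzastaurin array passed the lowest DMSO array, and were apart at 10 and 18 h. The second probe set, 216336_x_at, ran from 8268.8 to 9231.9 in DMSO at 4 h and from 11720.5 to 13663.1 at 18 h, against 5938.7 to 7469.9 over all enzastaurin arrays. Changes with enzastaurin at 4, 10 and 18 h were -0.24, -0.60 and -0.76 (SE 0.10) for 212859_x_at and -0.32, -0.67 and -0.93 (SE 0.09) for 216336_x_at.

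MT1F also had 2 probe sets, which differed in the size of the change. For 217165_x_at DMSO gave 3669.4, 4161.6 and 5200.1 at 4 h, 6736.0, 6243.0 and 7046.2 at 10 h, and 8248.0, 8417.7 and 7080.7 at 18 h. Enzastaurin gave 3586.1, 2016.0 and 3377.5 at 4 h, 3538.6, 3507.3 and 3108.4 at 10 h, and 3696.9, 2809.4 and 4406.9 at 18 h. The agents came close at 4 h without overlapping and were far apart later, with the 18 h enzastaurin arrays spread more widely than those at 10 h. The probe set 213629_x_at stayed within 2145.9 to 2920.0 in DMSO and 1858.3 to 2192.3 with enzastaurin. Its changes were -0.24, -0.43 and -0.40 (SE 0.08), against -0.56, -0.98 and -1.14 (SE 0.17) for 217165_x_at. The 4 h change of 217165_x_at was -0.30 without enzastaurin array 2, the lowest of that time.

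MT1G had the largest change of the 9 probe sets at 10 and 18 h. Its probe set 204745_x_at gave 4435.8, 4590.5 and 4910.9 in DMSO at 4 h, 8519.2, 9746.3 and 9706.9 at 10 h, and 9393.9, 11590.9 and 7832.5 at 18 h. With enzastaurin it gave 3887.3, 4005.9 and 3844.0 at 4 h, 3914.1, 4270.5 and 3714.4 at 10 h, and 3994.6, 3674.6 and 3911.1 at 18 h. All 9 enzastaurin arrays lay within 3674.6 to 4270.5, below the lowest DMSO array of any time. Most of the DMSO difference was present by 10 h, and the 10 and 18 h DMSO arrays overlapped. The changes were -0.25, -1.23 and -1.29 (SE 0.10). The second MT1G probe set, 210472_at, did not pass the level filter, with values of 4.6 to 92.1, and the agents overlapped at every time. With the mean of both MT1G probe sets the changes at 4 and 10 h were 0.011 and -0.64.

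MT1H was read by 206461_x_at. In DMSO this probe set gave 6031.7, 4929.8 and 5385.2 at 4 h, 6893.6, 6890.1 and 7713.1 at 10 h, and 11327.9, 12325.2 and 7485.0 at 18 h. With enzastaurin it gave 4788.0, 4647.2 and 4856.6 at 4 h, 4230.5, 3921.8 and 4350.4 at 10 h, and 4506.2, 5349.9 and 5962.0 at 18 h. The third DMSO array at 18 h was far below the other 2 and within the range of the 10 h arrays, yet above all enzastaurin arrays. Changes were -0.19, -0.78 and -0.95 (SE 0.13), with -0.11 at 4 h when DMSO array 1 was left out.

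MT1X had 2 probe sets of similar behaviour. For 208581_x_at DMSO gave 11985.2, 10647.8 and 12577.0 at 4 h, 13393.3, 15709.3 and 14740.3 at 10 h, and 18544.7, 17351.4 and 15785.3 at 18 h. Enzastaurin gave 10302.0, 10458.3 and 10150.7 at 4 h, 8593.7, 9530.5 and 11674.7 at 10 h, and 10621.6, 10157.6 and 14558.4 at 18 h. The third enzastaurin array at 18 h was the highest of the treated arrays and lay just below the lowest DMSO array of that time. The probe set 204326_x_at ran from 6929.1 to 7080.9 in DMSO at 4 h and from 9867.0 to 11906.2 at 18 h, and from 6176.0 to 7582.7 over all enzastaurin arrays. Changes were -0.18, -0.57 and -0.56 (SE 0.12) for 208581_x_at and -0.11, -0.69 and -0.61 (SE 0.07) for 204326_x_at.

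MT1M had only 217546_at, which did not pass the level filter. Its values ran from 5.3 to 75.9, and the DMSO arrays at 18 h, at 38.4, 75.9 and 13.7, overlapped the enzastaurin arrays of that time. At this level no order of the groups can be read for MT1M.

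**Figure D1:**
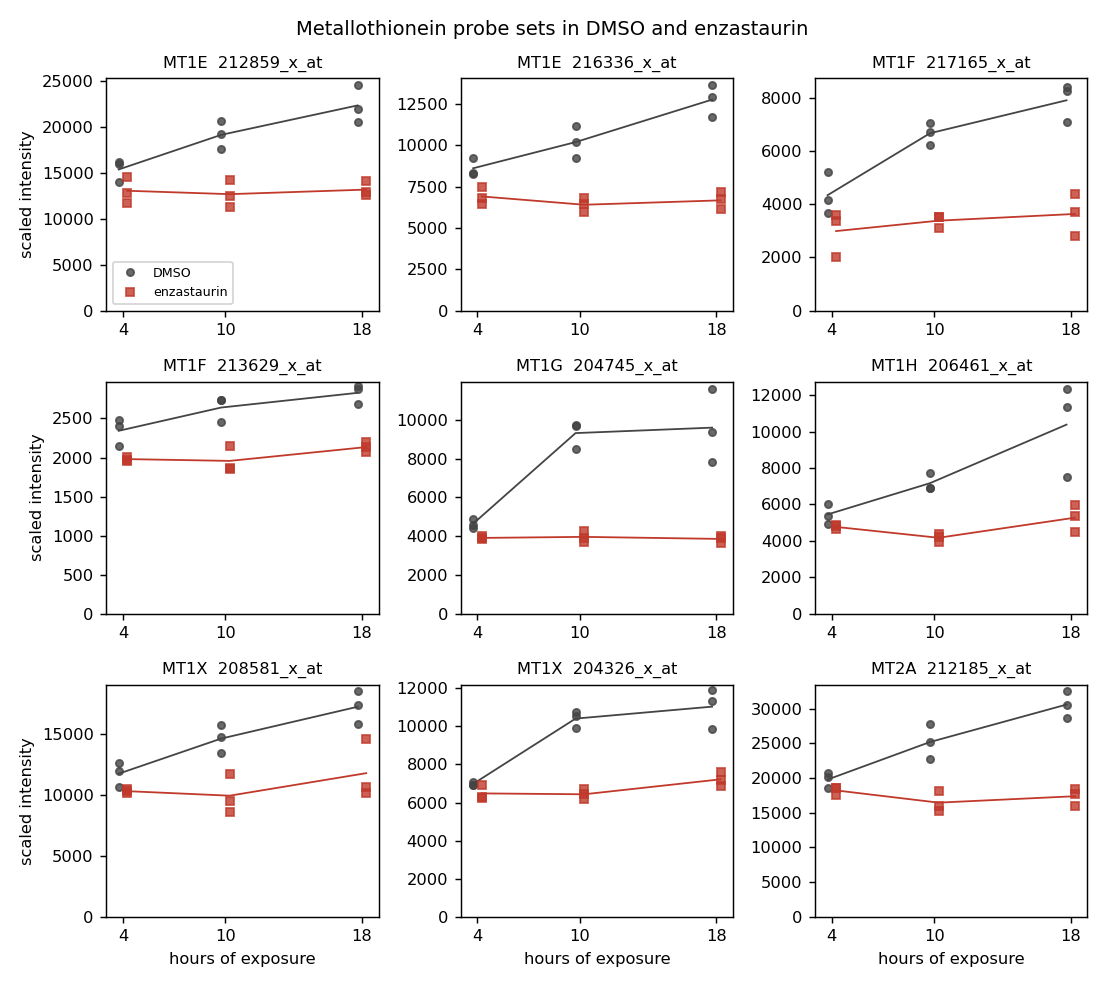
Scaled intensity (linear axes from 0) of the 9 metallothionein probe sets past the level filter against hours of exposure; each point is 1 array and lines join the means of 3 arrays, with DMSO in grey circles and enzastaurin in red squares. The grey lines go up from 4 to 18 h in all 9 panels, while the red lines change less. The red line is lowest at 10 h in several panels. Only in the MT1H panel do all red points at 10 h lie below all those at 4 and 18 h.

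In the order of group means, the 3 enzastaurin groups were the lowest for 7 of the 9 probe sets. For both MT1X probe sets the enzastaurin 18 h mean was above the DMSO 4 h mean, with overlapping arrays. DMSO 18 h had the highest mean for all 9, and its arrays overlapped those of DMSO 10 h for 5 of them. Counted together, 8 of the 9 metallothionein probe sets had all 3 enzastaurin arrays below all 3 DMSO arrays at 4 h, the exception being MT1E 212859_x_at, and 9 of 9 did so at 10 h and at 18 h. Among all 22796 probe sets tested, 8.65% were so placed at 4 h, 13.4% at 10 h and 13.6% at 18 h. By limma, a linear model with variances shared across probe sets, at a Benjamini-Hochberg adjusted p under 0.05, 0 of 9 were called lower at 4 h, 9 at 10 h and 9 at 18 h, beside 0.803%, 3.31% and 6.47% of all probe sets. At an unadjusted p under 0.05, 5 of 9 were lower at 4 h, beside 6.36% of all probe sets. Nothing is read from these counts, since the genes were chosen with these contrasts known. The median change of the 9 was -0.24 at 4 h, -0.67 at 10 h and -0.82 at 18 h, and that of all probe sets tested was -0.0019, -0.0105 and -0.0037.

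The separation at 4 h depended on how arrays were scaled. Array medians at that time were 110.8 to 123.7 in DMSO and 99.5 to 114.0 with enzastaurin. With each array's median subtracted, 0 of 9 probe sets were separate at 4 h, the median change was -0.12, and 1 of 9 was above 0, while the median of all probe sets moved to 0.11. After quantile normalization 9 of 9 were separate at 4 h, with a median change of -0.25. The share of all probe sets so placed was not worked out for either scaling. At 10 and 18 h all 9 remained lower with array medians subtracted and after quantile normalization.

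**Figure D2:**
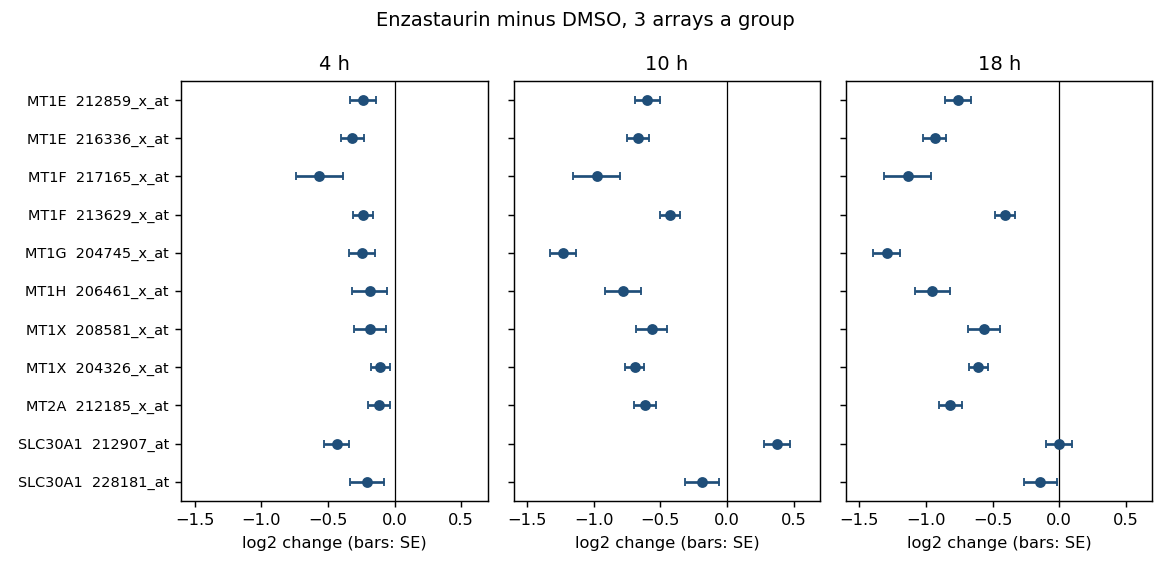
Log2 change, enzastaurin minus DMSO, of the 11 probe sets past the level filter at 4, 10 and 18 h; points are estimates from 3 arrays a group and bars are 1 SE. The 9 metallothionein probe sets move from between -0.56 and -0.11 at 4 h to between -1.29 and -0.40 at 18 h, and SLC30A1 212907_at changes side between 4 and 10 h.

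The difference between the agents opened mostly through the DMSO arrays. From 4 to 10 h in DMSO, the 9 probe sets differed by 0.17 (MT1F 213629_x_at, 0.11 without DMSO 4 h array 2) to 1.0 (MT1G), with 8 of 9 separate from their 4 h arrays, and 6 called higher, against 18.5% and 8.93% of all probe sets. From 4 to 18 h the range was 0.27 (MT1F 213629_x_at) to 1.03 (MT1G), with 9 of 9 separate and 9 called higher, against 18.2% and 9.65%. MT2A differed by 0.35 at 10 h and 0.63 at 18 h, MT1H by 0.40 and 0.90, and MT1F 217165_x_at by 0.63 and 0.87. The median of the 9 over 18 h was 0.63, against 0.027 for all probe sets tested.

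Over the same 4 to 18 h with enzastaurin, the 9 probe sets differed by -0.07 (MT2A) to 0.30 (MT1F 217165_x_at), with a median of 0.11 beside 0.039 for all probe sets. Limma called 0 of 9 while 27.3% of all probe sets were called in either direction. At an unadjusted p under 0.05, 1 of 9 was higher, beside 20.1% of all probe sets. After quantile normalization 2 of 9 were called higher. The share of all probe sets called under that scaling was not worked out. As deposited, 3331 of all 22796 probe sets tested were called higher, and nothing is read from the 2. One probe set, MT1F 213629_x_at, had its 18 h arrays above its 4 h arrays, a placing found for 21.1% of all probe sets. The sign of these small differences followed the scaling, with 3 of 9 negative as deposited, 5 with array medians subtracted and 0 after quantile normalization. The change in the enzastaurin difference between 4 and 18 h ranged from -1.05 to -0.17 with a median of -0.57, and limma called 6 of 9 lower, beside 2.59% of probe sets. These comparisons share the 4 h arrays and the 18 h arrays with those above, so they add no separate measurement. Nothing is read from the counts over time in either agent, since the genes were chosen on values of these arrays.

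**Figure D3:**
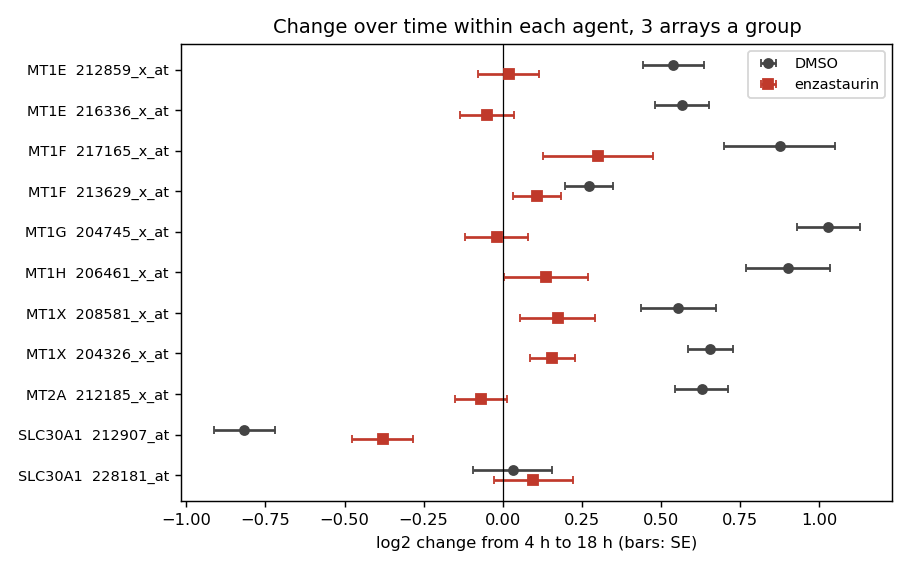
Log2 change from 4 to 18 h of the 11 probe sets past the level filter, within DMSO (grey circles) and within enzastaurin (red squares), from 3 arrays a group. Bars are 1 SE of the model of all 18 arrays. The 9 metallothionein points lie between 0.27 and 1.03 in DMSO and between -0.07 and 0.30 with enzastaurin, and SLC30A1 212907_at lies below 0 in both.

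Across the 18 arrays the 36 pairs of metallothionein probe sets correlated at 0.83 to 0.98, with a median of 0.91, on log2 values. The probes of a pair may share transcripts, and all points share the 6 group means. With group means removed, the pairs correlated at -0.21 to 0.84 with a median of 0.39. The closest pair was MT2A with MT1E 212859_x_at (0.98, and 0.84 with group means removed), and the 2 MT1F probe sets correlated at 0.88 and 0.19. These correlations describe 18 arrays and carry no test.

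SLC30A1, whose promoter held 2 matches to the core of the element (8.60% of promoters held at least 2), had a different course. For the probe set 212907_at, DMSO gave 3474.9, 3517.3 and 3852.1 at 4 h, 2686.2, 2442.2 and 1920.2 at 10 h, and 1992.8, 2256.9 and 1896.7 at 18 h. Enzastaurin gave 2618.3, 2525.7 and 2860.3 at 4 h, 2976.0, 3143.3 and 2941.7 at 10 h, and 2067.0, 2038.3 and 2029.9 at 18 h. At 4 h every enzastaurin array was below every DMSO array, at 10 h every one was above, and at 18 h the agents overlapped. The log2 changes were -0.44, 0.37 and 0.0012 (SE 0.10), and at 10 h 0.24 without DMSO array 3 and 0.062 with the mean of the SLC30A1 probe sets. In DMSO this probe set differed from its 4 h level by -0.63 at 10 h and -0.82 at 18 h, and with enzastaurin by 0.18 and -0.38. The ascending order of group means was enzastaurin 18 h, DMSO 18 h, DMSO 10 h, enzastaurin 4 h, enzastaurin 10 h and DMSO 4 h. Neighbours among the lowest 4 overlapped, while the arrays of enzastaurin 10 h and of DMSO 4 h each stood above the group below. Its sign at 4 and at 10 h was the same with array medians subtracted (-0.32 and 0.39) and after quantile normalization (-0.44 and 0.36).

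The other SLC30A1 probe sets did not share this course. For 228181_at DMSO gave 468.5, 499.6 and 500.5 at 4 h, 600.4, 713.7 and 545.7 at 10 h, and 514.9, 483.4 and 502.5 at 18 h. Enzastaurin gave 435.5, 441.2 and 390.3 at 4 h, 555.5, 558.7 and 505.3 at 10 h, and 452.9, 532.9 and 381.5 at 18 h. Both agents were highest at 10 h, and the arrays were separate between agents at 4 h only. Its log2 changes were -0.21, -0.19 and -0.14 (SE 0.12). The 4 h change was -0.092 with array medians subtracted and -0.20 after quantile normalization. The 10 h change was -0.084 without DMSO array 2, and the 18 h change was -0.26 without enzastaurin array 2 and -0.025 without enzastaurin array 3. The 2 probe sets correlated at 0.040 over the 18 arrays, so SLC30A1 has no single course here. The third, 242716_at, did not pass the level filter and ran from 3.3 to 43.1. Between SLC30A1 212907_at and the 9 metallothionein probe sets the correlations over 18 arrays were -0.55 to -0.30, and -0.11 to 0.26 with group means removed. For 228181_at and the same 9 probe sets they were 0.17 to 0.51, and -0.46 to 0.24 with group means removed.

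**Figure D4:**
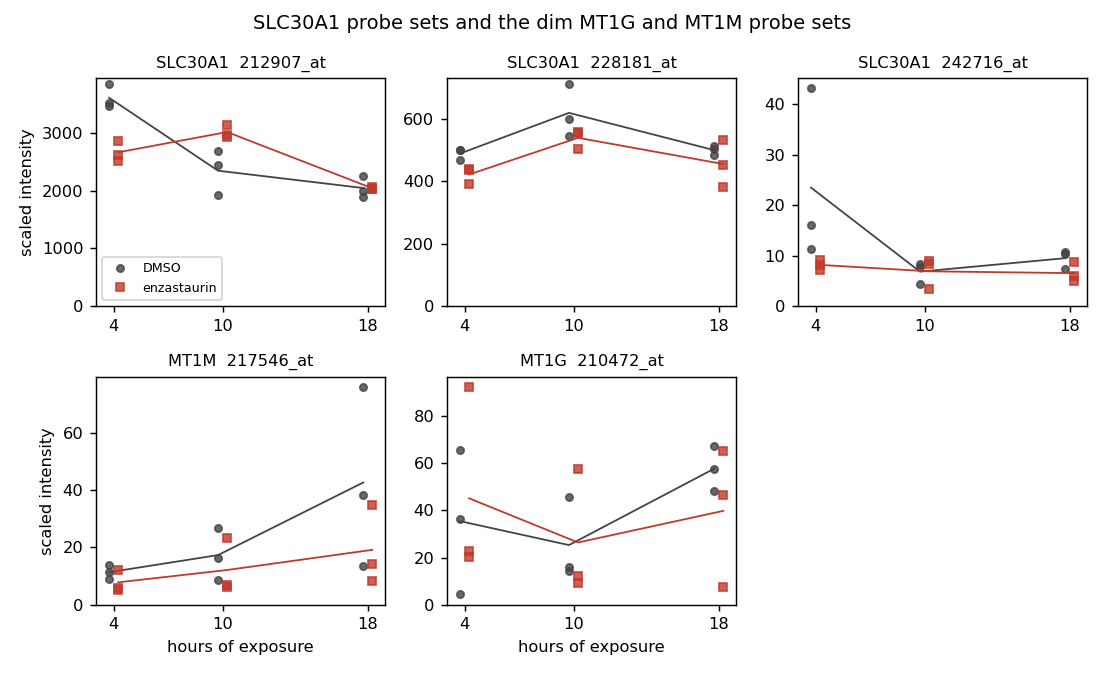
Scaled intensity (linear axes from 0, a different scale in each panel) of the 3 SLC30A1 probe sets and of the dim MT1M and MT1G probe sets against hours of exposure; points are single arrays, lines join the means of 3 arrays, grey circles are DMSO and red squares enzastaurin. In the 212907_at panel the lines cross between 4 and 10 h, and the 3 dim probe sets stay below 100 on every array.

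MTF1 encodes the factor that binds the metal response elements. Its probe set with the highest mean, 227150_at, had means of 1066 ± 90.0 (SD, n = 3) in DMSO and 1189 ± 51.5 with enzastaurin at 4 h, 821 ± 92.5 and 1201 ± 252 at 10 h, and 818 ± 84.3 and 1052 ± 45.8 at 18 h. By limma MTF1 was higher with enzastaurin than in DMSO at 10 h (log2 change 0.52, SE 0.12, adjusted p = 0.0143). It did not pass at 4 h (0.16, adjusted p = 0.688) or 18 h (0.36, adjusted p = 0.0642), though at 18 h it passed with only the brightest 25% (adjusted p = 0.0462). The other 2 MTF1 probe sets, 205322_s_at and 205323_s_at, gave 0.23 (adjusted p = 0.348) and 0.25 (adjusted p = 0.178) at 10 h. From 4 to 18 h in DMSO, 227150_at fell by 0.38 (adjusted p = 0.0412), while the other 2 gave 0.06 (adjusted p = 0.809) and -0.26 (adjusted p = 0.0959), so the probe sets do not give MTF1 a common course in DMSO. At 10 h MTF1 no longer passed after leaving out DMSO array 3 or enzastaurin array 1 or 2 (adjusted p = 0.0857, 0.0970 and 0.0508) or with array medians subtracted (adjusted p = 0.0720) or only the arrays compared (adjusted p = 0.0646).

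Other metallothionein genes were listed too, 9 in all, of which 3 had a probe set of their own. MT1HL1, a gene similar to MT1H, is read by another x_at probe set, which may share signal with the members. By limma its signal was lower with enzastaurin at 10 h (-0.74, SE 0.14, adjusted p = 0.00284) and 18 h (-0.61, adjusted p = 0.00612), with means of 15000.0 ± 1218 (SD, n = 3) in DMSO against 9043 ± 1577 at 10 h. MT3, the metallothionein known from brain, had changes of -0.45, -0.15 and -0.50, which did not pass the test (adjusted p = 0.511, 0.821 and 0.210). Its means lay between 195 and 309. MT4, known from stratified epithelium, did not pass the level filter.

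Zinc exporters and vesicle loaders of the SLC30 family move zinc out of the cytosol, as SLC30A1 does. Of 9 listed beside SLC30A1, 6 were tested, and 0 were called higher or lower at any of the 3 times. Over all 12392 genes tested, each by 1 probe set, 0.428% were called higher and 1.0% lower at 4 h, 3.27% and 4.17% at 10 h, and 7.34% and 7.22% at 18 h. At an unadjusted p under 0.05, 3 exporters were higher at 4 h, 3 higher and 1 lower at 10 h, and 1 higher at 18 h. At that threshold 5.75% of all genes were higher and 6.73% lower at 4 h, 9.44% and 11.5% at 10 h, and 14.3% and 13.4% at 18 h. The median change of the 6 was 0.20, 0.19 and 0.18, and that of all genes was 0.0005, -0.0166 and 0.0017.

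Zinc importers of the SLC39 family bring zinc into the cytosol. Of 14 listed, 11 were tested, with 0 called at 4 h (0 at an unadjusted p under 0.05), 1 higher at 10 h, and 1 higher and 1 lower at 18 h. The median change was 0.08, -0.014 and 0.15. SLC39A14, a zinc and iron importer, was higher with enzastaurin than in DMSO at 10 and 18 h. Its log2 changes were 0.31 (SE 0.07, limma adjusted p = 0.0119) and 0.40 (adjusted p = 0.000616). At 18 h its means were 4712 ± 360.1 (SD, n = 3) in DMSO and 6219 ± 219.95 with enzastaurin. It no longer passed at 10 h after leaving out DMSO array 1 (adjusted p = 0.0544) or enzastaurin array 2 (adjusted p = 0.0628), or with array medians subtracted (adjusted p = 0.166), nor at 18 h with the mean of its probe sets (0.22, adjusted p = 0.157).

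SLC39A10, a plasma membrane zinc importer, was lower with enzastaurin than in DMSO at 18 h (-0.77, SE 0.10, limma adjusted p = 3.28e-05). Its means were 647 ± 50.5 (SD, n = 3) in DMSO and 375 ± 43.4 with enzastaurin at 18 h, against 912 ± 23.45 and 869.9 ± 42.0 at 4 h. The change at 18 h differed from that at 4 h by -0.70 (limma, adjusted p = 0.0068), while 6.66% of all genes were called in that comparison. In DMSO SLC39A10 fell by 0.49 from 4 to 18 h (adjusted p = 0.0025).

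**Figure D5:**
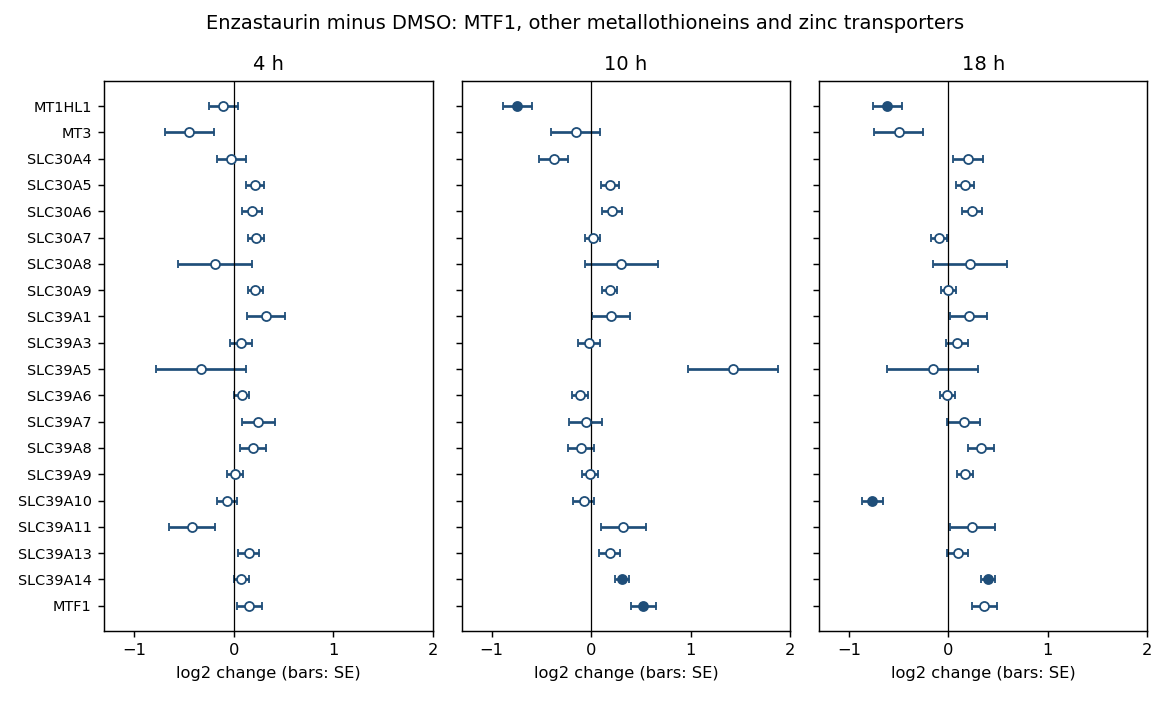
Log2 change, enzastaurin minus DMSO, of MTF1, the other metallothioneins and the zinc transporters tested, at 4, 10 and 18 h; points are estimates from 3 arrays a group, bars are 1 SE, and filled points have a limma adjusted p under 0.05. Filled points are MT1HL1 at 10 and 18 h, SLC39A14 at 10 and 18 h, MTF1 at 10 h and SLC39A10 at 18 h.

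Copper handling genes were included because metallothioneins also bind copper. Of 11 listed, 10 were tested, with 0 called at 4 h and 10 h and 2 higher at 18 h. At an unadjusted p under 0.05, 1 was higher at 4 h and 1 lower at 10 h. ATOX1, a copper chaperone, was higher with enzastaurin than in DMSO by 0.45 at 18 h (SE 0.10, limma adjusted p = 0.00581). Its DMSO means were 3588 at 4 h and 2451 at 18 h (log2 change -0.54, limma adjusted p = 0.000864). With enzastaurin they were 3666 and 3353. SLC31A1, the copper importer CTR1, was higher than in DMSO by 0.63 at 18 h (SE 0.19, adjusted p = 0.0354). Leaving out DMSO array 1 or 3, or enzastaurin array 2 or 3, ended the SLC31A1 call (adjusted p from 0.0501 to 0.151). So did array medians subtracted, no trend, no level filter and array weights (adjusted p = 0.10, 0.080, 0.0649 and 0.0503). The median change at 18 h was -0.08.

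Iron uptake, storage and export genes gave 0 calls among 5 tested of 7 listed at each time. At an unadjusted p under 0.05, 1 was lower at 4 h and 1 at 10 h. Their median change was 0.0060, -0.08 and -0.12.

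Targets of NRF2, the transcription factor of the oxidative stress response, split in direction. Of 9 listed and tested, 0 were called at 4 h (1 lower at an unadjusted p under 0.05), 1 higher and 2 lower at 10 h, and 2 higher and 2 lower at 18 h. NQO1, a quinone reductase, was lower than in DMSO by 0.35 at 10 h (SE 0.07, limma adjusted p = 0.00485). At 18 h NQO1 was lower by 0.54 (adjusted p = 2.77e-05). TXNRD1, thioredoxin reductase, was lower than in DMSO by 0.28 and 0.32 at these times (adjusted p = 0.0294 and 0.00649). SLC7A11, the cystine importer, was higher than in DMSO by 0.30 and 0.40 at 10 and 18 h (adjusted p = 0.0198 and 0.00105). SRXN1, sulfiredoxin, was higher than in DMSO by 0.45 at 18 h (adjusted p = 0.000556). At 10 h SLC7A11 no longer passed when DMSO array 1 or enzastaurin array 2 or 3 was left out (adjusted p from 0.0566 to 0.0902), with array medians subtracted (adjusted p = 0.0870) or with no trend (adjusted p = 0.0610). TXNRD1 no longer passed at 10 h when any array of that time but DMSO array 1 was left out (adjusted p from 0.0550 to 0.113), with array medians subtracted (adjusted p = 0.111), no level filter (adjusted p = 0.0699) or no trend (adjusted p = 0.0799). With the mean of its probe sets TXNRD1 was at -0.04 at 10 h (adjusted p = 0.954) and -0.26 at 18 h (adjusted p = 0.445), and with only the arrays compared its 18 h change had an adjusted p of 0.0615.

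Heat shock genes were tested for 5 of 8 listed, with 0 called at 4 h (1 higher at an unadjusted p under 0.05), 1 higher at 10 h, and 1 higher and 1 lower at 18 h. DNAJB1, an HSP40 co-chaperone, was higher than in DMSO by 0.61 at 10 h (SE 0.09, limma adjusted p = 0.000305). At 18 h it was higher by 0.58 (adjusted p = 0.00021). HSPB1, the small heat shock protein HSP27, was lower than in DMSO by 0.55 at 18 h (SE 0.09, adjusted p = 0.000157). The median change of the 5 was -0.08 at 18 h.

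Glucocorticoid receptor targets were tested for 8 of 10 listed, and moved in both directions. At 4 h 3 were called lower, at 10 h 4 lower and 1 higher, and at 18 h 4 lower and 3 higher, with medians of -0.52, -0.51 and -0.38. SGK1, a kinase that regulates ion transport, was lower than in DMSO by 1.24, 0.63 and 0.73 at 4, 10 and 18 h (SE 0.11). Its limma adjusted p was 8.55e-07, 0.000872 and 7.11e-05. DUSP1, a MAP kinase phosphatase, was lower by 1.14, 0.84 and 0.45 (SE 0.10, adjusted p = 1.03e-06, 1.64e-05 and 0.00408). ERRFI1, a feedback inhibitor of the EGF receptor, was lower by 0.54, 0.38 and 0.58 (SE 0.07). GLUL, glutamine synthetase, was higher than in DMSO by 0.23 at 18 h (SE 0.06, adjusted p = 0.0145). It no longer passed when array 3 of DMSO or of enzastaurin was left out (adjusted p = 0.0518 and 0.0714). Nor did GLUL pass with the mean of its probe sets (0.18, adjusted p = 0.646), array medians subtracted (adjusted p = 0.196) or only the arrays compared (adjusted p = 0.0906). The remaining genes called, named after their values were seen, were CRISPLD2, lower at 10 and 18 h, TSC22D3, higher at 10 and 18 h, and FKBP5, higher at 18 h. With the mean of its probe sets DUSP1 was not called at any time and stood at 0.033 at 18 h (adjusted p = 0.939).

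The genes whose pattern over the 18 arrays was most like MT2A were found by Pearson correlation of log2 values among 12384 genes, each by 1 probe set and with metallothioneins left out. They were TMEM50A (0.98), NQO1 (0.97), SCAMP1 (0.95), TMT1A (0.95) and PAIP2 (0.95). TMT1A had group means of 491.0, 904.0 and 1142.2 in DMSO at 4, 10 and 18 h and of 400.6, 368.5 and 403.8 with enzastaurin, with the DMSO means ascending and the enzastaurin means nearly level. NQO1 had means of 16914.8, 19179.9 and 23122.7 in DMSO and 16494.5, 15041.5 and 15970.4 with enzastaurin. The genes most like SLC30A1 212907_at, among 12383, were WDR36 (0.88), RBBP6 (0.87), AURKA (0.86), HBEGF (0.86) and BORA (0.85). AURKA had means of 11526.2, 8068.3 and 7885.8 in DMSO and 8862.5, 10059.3 and 7844.8 with enzastaurin, in the same order of agents at 4 and 10 h as SLC30A1. The arrays share their 6 group means in these correlations, which were picked as the highest of many and carry no test.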

How the data were processed

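Total RNA of 18 U251 samples was measured on Affymetrix HG-U133 Plus 2.0 arrays, per the labels' protocols. The deposited table gives 54613 probe sets a linear signal intensity, made by the authors with GCOS 1.2 per the submitters' processing notes. Every array had a 2% trimmed mean of 498.25 to 498.54, so arrays had been scaled to 1 level. Detection calls and probe level data were not used here. Of the probe sets, 41091 had 1 gene symbol, 1801 several and 11721 none.

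Values were analysed as log2 of intensity plus 16. Probe sets with 1 symbol and a mean at or above 109, the median of all probe sets, were tested (22796). limma 3.58.1 in R 4.3.3 fitted 1 mean per group over all 18 arrays, with a trend on level. The Benjamini-Hochberg adjustment was over all probe sets tested. Genes of the lists were read by their probe set with the highest mean and keep its adjusted p from that fit. Shares of genes are over the 12392 genes so read. The pipeline was tested on simulated data. The members and lists were chosen with earlier results of these data known. Genes named are all members and other metallothioneins, MTF1, up to 4 called genes per list with the smallest adjusted p, and the 5 most correlated genes. CRISPLD2, TSC22D3 and FKBP5 were named outside this rule, after their values were seen. Of 78 listed genes in 9 lists, 57 were tested. Alternatives were offsets of 1 and 64, no level filter or only the brightest 25%, quantile normalization, array medians subtracted, 1 probe set per gene, mean of probe sets, array weights, no trend, only the arrays compared, replicate blocks, a minimum of 2-fold, and omission of single arrays. Promoters were searched in a RefSeq table (GRCh38.p14). Figures used Python 3.11.15 and matplotlib 3.10.9.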

Additional observations from a re-analysis of the deposited data

Results flagged for a closer look

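For 9 pathway genes the enzastaurin difference at 18 h differed from that at 4 h in limma's test of the difference itself. On the log2 scale the change at 18 h minus that at 4 h was -0.70 for SLC39A10, -0.50 for NQO1 and -0.56 for HSPB1. It was above 0 for the others, at 0.61 for SRXN1, 0.46 for SLC7A11, 0.52 for SGK1, 0.69 for DUSP1, 0.32 for GLUL and 0.49 for FKBP5. For SLC30A1 212907_at all 3 enzastaurin arrays lay below all 3 DMSO arrays at 4 h (-0.44) and above them at 10 h (0.37). That difference between times was not tested. No explanation was weighed for these values.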

How the results depend on the processing

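The metallothionein changes kept their sign at 10 and 18 h in each of the alternatives run, and an offset of 1 or 64, quantile normalization, replicate blocks and each array left out moved the values by less than the spread between arrays. With array medians subtracted, 0 of 9 probe sets were separate at 4 h and the median changes were -0.12 at 4 h and 0.45 for DMSO at 10 against 4 h. By gene rather than probe set, with 1 probe set or the mean of probe sets, 5 of 6 genes were separate at 4 h, and with the mean of probe sets 5 of 6 at 10 h and for DMSO at 10 against 4 h. For MT1G that mean includes 210472_at, which did not pass the level filter. The share of all probe sets or genes so placed was not worked out for these alternatives, and nothing is read from the counts. The mean of probe sets gave a median of -0.17 at 4 h, and 1 probe set per gene a median of 0.75 for DMSO at 18 against 4 h. For DUSP1 at 18 h the mean of probe sets turned the change to 0.033 (adjusted p = 0.939).

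Probe sets called numbered 264, 1425 and 2879 at 4, 10 and 18 h and 4085 for DMSO at 18 against 4 h. They numbered 104 (72 higher, against 81 of the 264), 634, 1797 and 2641 with array medians subtracted, 130, 632, 1368 and 1689 with the mean of probe sets, and 28, 128, 360 and 358 with a 2-fold minimum. Only the arrays compared gave 136 at 4 h, array weights 2157 at 10 h, and 1 probe set per gene 2512 for DMSO. Leaving out 1 array gave 163 to 231, 864 to 1082, 2213 to 2712 and 3170 to 3315, with 163 without DMSO 4 h replicate 3, and 864 without DMSO 10 h replicate 2 or 3. Of the list genes 3, 12 and 18 were called at 4, 10 and 18 h and 9 for the difference between 18 and 4 h. Quantile normalization gave 5 at 4 h, array medians 7 at 10 h and 3 for the difference, no trend 5 for the difference, and a 2-fold minimum 0 at 10 h, at 18 h and for the difference. Leaving out 1 array gave 3 to 4, 8 to 10, 15 to 18 and 6 to 9, and for the metallothionein counts 8 to 9 at 4 h, 9 at 10 and 18 h, 8 to 9 for DMSO at 10 h and 9 at 18 h. The medians then ran from -0.26 to -0.19, -0.73 to -0.60, -0.86 to -0.76, 0.27 to 0.42 and 0.58 to 0.67. The cause of these moves was not tested, and the share of all probe sets separate with 1 array left out was not worked out.

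With group means subtracted, pairs of arrays that share a replicate number had correlations of -0.10 to 0.18, and the numbers were not taken as pairs. With a replicate block, 259, 1411 and 2876 probe sets were called at 4, 10 and 18 h, and DNAJB1 was also called at 4 h (adjusted p = 0.0245). DNAJB1 was called at 4 h too after quantile normalization (limma adjusted p = 0.0403) and with only the brightest 25% (adjusted p = 0.0492). Leaving out DMSO 4 h array 3 or enzastaurin 4 h array 1 gave that call as well (adjusted p = 0.0115 and 0.031).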
